A study of Mus musculus with 6 samples.

Results

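Lipoxygenases are iron enzymes that add oxygen to polyunsaturated fatty acids, and the leukotrienes are made by one branch of them. The 10 genes described here are 7 lipoxygenase genes (Alox5, Alox8, Alox12, Alox12b, Alox12e, Alox15 and Aloxe3) and 3 partners of the leukotriene branch (Alox5ap, Lta4h and Ltc4s). They were chosen by name, out of 24063 gene symbols in the count tables, and all 10 were among the 16336 genes that passed the filter on low counts. Each has a single RefSeq transcript row. RNA sequencing was performed on penile tumors of 3 SA mice, which carry PB-Cre+ (the PB-Cre4 line) with Smad4L/L and ApcL/L, and on normal penile epithelium of 3 wild type (WT) C57BL/6 mice, all 5 months old. The probasin promoter of PB-Cre acts in androgen-responsive epithelium, so that the deletions are directed to epithelial cells, while the tissue also holds stroma, vessels and leukocytes. No group carried Cre without the floxed alleles, and the strain of the SA mice is not given in the sources used here. The tumors formed without a carcinogen.

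In mouse skin and other squamous epithelia, Alox12b and Aloxe3 act in sequence on the linoleate of acylceramides, a step in building the lipid barrier, and loss of either gives ichthyosis. Alox8 and Alox12e are epidermal lipoxygenases of the mouse, Alox12 is the platelet-type enzyme and Alox15 the enzyme of some macrophages and eosinophils. In leukocytes, Alox5 with its membrane partner Alox5ap converts arachidonic acid to leukotriene A4. Lta4h turns that product into the neutrophil attractant leukotriene B4, and Ltc4s joins it to glutathione to start the cysteinyl leukotrienes.

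SA tumor replicate 3 was the deepest of the 6 libraries, with 110509147 counts in the gene rows, which was 4.42 times the median depth of the rest (23828283 to 32871142 counts). The floor was set at 3 counts, or between 0.0244 and 0.137 in counts per 1e6 counts (CPM, normalized by TMM), and covers counting error only. Keratin 5, a basal squamous marker, was abundant in both groups. It averaged 3280 ± 269 CPM over SA tumors and 7610 ± 182 CPM over WT penises (SD, n = 3 per group). Of the floxed genes, Smad4 had 36.6, 36.0 and 46.0 CPM in SA tumors 1 to 3 and 61.1, 69.7 and 72.5 CPM in WT penises 1 to 3, with a log2 fold change of -0.77 (SE 0.128, adjusted p = 0.00114). Apc had 253, 194 and 197 CPM in SA tumors and 62.5, 85.3 and 91.0 CPM in WT penises, with a log2 fold change of 1.43 (SE 0.168, adjusted p = 0.000185). The counts cover whole transcripts, including exons outside the deleted part, so neither value checks the deletion. Of the 16336 genes, 3283 were higher and 2865 lower in SA tumors at an adjusted p-value under 0.01, and scaling by library totals alone gave 5244 and 1807. That scaling moved the median log2 fold change of all genes from 0.03 to 0.31.

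At an adjusted p-value under 0.01, 3 of the 10 genes rose (Alox12e, Alox8 and Alox15), 2 fell (Alox12b and Aloxe3) and 5 did not pass the test. The background was 37.6% of all genes tested, 20.1% higher and 17.5% lower. The 3 increases also passed the fold threshold of the study, a log2 fold change of 2 in size, which 13.0% of all genes passed in either direction 9.41% as increases and 3.59% as decreases. In 7 of the 10 genes, the CPM values of the SA tumors and the WT penises did not overlap, against 63.4% of all genes tested. Their log2 fold changes had a median of 0.30. All 3 genes that rose were among the lowest of the 10 in WT penises, and Alox5, Alox5ap, Lta4h and Ltc4s were among those that did not pass the test.

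**Figure D1:**
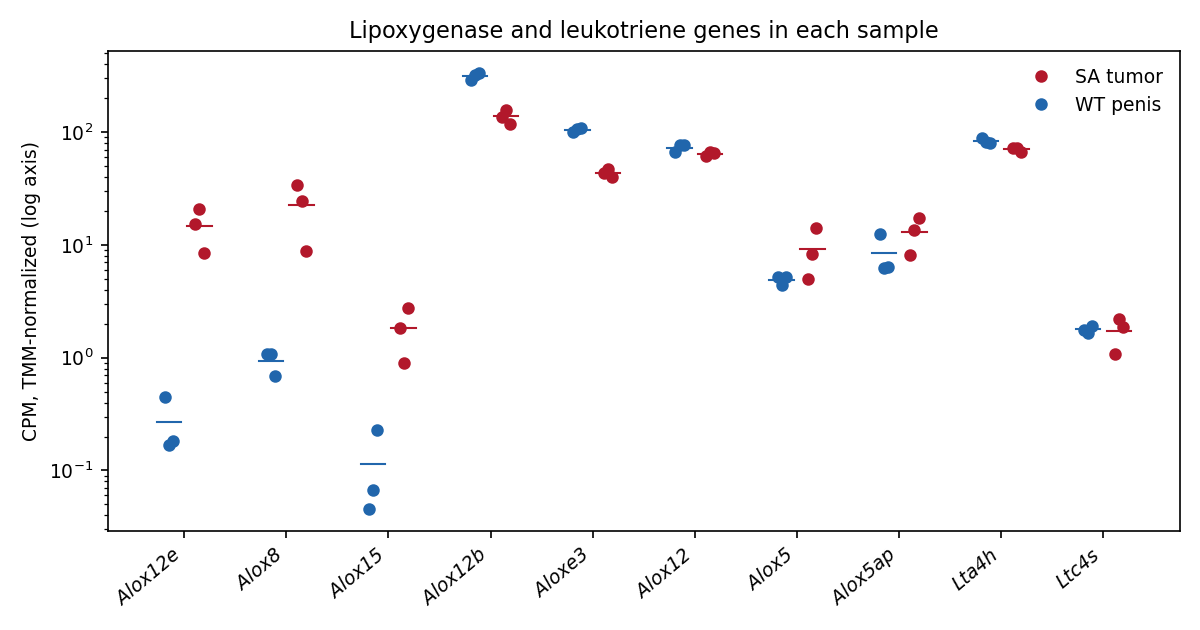
Normalized expression (CPM, log axis) of the 10 genes in each of the 3 SA tumors (red) and 3 WT penises (blue), with lines at the group means. Alox12e, Alox8 and Alox15 lie higher in every SA tumor than in any WT penis, Alox12b and Aloxe3 lie lower, and the points of Alox5, Alox5ap and Ltc4s overlap.

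Alox12e, Alox8 and Alox15 all lie on chromosome 11, where 6 of the 7 lipoxygenase genes form 2 clusters 1043.6 kb apart. Aloxe3, Alox12b and Alox8 span 72.4 kb in this order, with 8.0 kb between the first pair and 14.1 kb between the second. Alox12, Alox12e and Alox15 span 149.1 kb, with 60.2 kb between Alox12 and Alox12e and 21.4 kb between Alox12e and Alox15. In the first cluster Alox8 rose while Aloxe3 and Alox12b fell. In the second, Alox12e and Alox15 rose and Alox12 did not pass the test. The promoters of 2 genes that rose, of 1 that fell and of 1 that did not pass the test are printed here. Each is a RefSeq window from 250 bases before to 50 bases after a start (GRCm38.p6, 5′ to 3′ on the strand of the gene). The start used is the outer end of the gene for Alox8 and Alox12b, but lies 10 bases inside it for Alox12 and 190 bases inside it for Alox12e, so that the Alox12e window reaches only 60 bases beyond the gene. Alox8 is at chr11:69197794-69198093 on the minus strand, Alox12e at chr11:70322481-70322780 on the minus strand, Alox12b at chr11:69156822-69157121 on the plus strand and Alox12 at chr11:70255321-70255620 on the minus strand. Capitals mark CAGAC or its reverse complement GTCTG, a short element that SMAD proteins can bind.
Alox8: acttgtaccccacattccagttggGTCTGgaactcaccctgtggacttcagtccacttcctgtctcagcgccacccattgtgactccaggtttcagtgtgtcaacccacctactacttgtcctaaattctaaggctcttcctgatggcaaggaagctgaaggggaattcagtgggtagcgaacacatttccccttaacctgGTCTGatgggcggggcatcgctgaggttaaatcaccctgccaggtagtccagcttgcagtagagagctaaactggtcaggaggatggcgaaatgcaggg
Alox12e: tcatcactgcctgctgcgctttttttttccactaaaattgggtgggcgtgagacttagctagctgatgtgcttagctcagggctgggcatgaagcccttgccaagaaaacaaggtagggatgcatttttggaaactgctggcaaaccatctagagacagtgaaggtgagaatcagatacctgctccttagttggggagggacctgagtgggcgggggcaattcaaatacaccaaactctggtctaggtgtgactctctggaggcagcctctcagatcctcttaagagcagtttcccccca
Alox12b: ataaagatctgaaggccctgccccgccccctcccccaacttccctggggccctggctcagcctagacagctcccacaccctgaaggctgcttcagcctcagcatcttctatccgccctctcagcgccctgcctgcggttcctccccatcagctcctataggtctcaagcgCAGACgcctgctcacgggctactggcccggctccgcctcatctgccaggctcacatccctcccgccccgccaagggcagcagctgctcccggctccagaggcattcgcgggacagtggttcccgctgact
Alox12: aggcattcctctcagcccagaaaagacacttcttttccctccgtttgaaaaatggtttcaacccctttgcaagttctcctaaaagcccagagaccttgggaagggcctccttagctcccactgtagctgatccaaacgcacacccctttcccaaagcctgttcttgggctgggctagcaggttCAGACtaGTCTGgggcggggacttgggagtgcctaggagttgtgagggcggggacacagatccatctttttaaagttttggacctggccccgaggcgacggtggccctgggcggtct

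Both strands of the 7 promoters in the RefSeq table (Alox5, Alox8, Alox12, Alox12b, Alox12e, Lta4h and Ltc4s) were searched for CAGAC and for CTTTGA. The latter is a form of the core of sites of TCF/LEF factors, which act with β-catenin. CAGAC was found in 6 of the 7 windows and in 49.6% of all 32851 promoters. It was not found in the Alox12e window, which leaves most of the stretch before the outer end of that gene unsearched. Alox8 held it at 226 and 49 bases before the start, and Alox12b held it at 80 bases before the start. CTTTGA was found in 0 of the 7 promoters and in 16.0% of all promoters. Other forms of that core were not searched, and 7 windows are few for such a share. The GC content was 66.0% in the Alox12b window, 55.3% in Alox12, 52.7% in Alox8 and 50.7% in Alox12e, and its median was 52.7% over all promoters. A match of letters is a description and not a bound site.

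Alox12e (NM_145684, 14 exons, chromosome 11, 70315610 to 70322720) had the largest change of the 10 genes. Its expression was 15.2, 20.8 and 8.55 CPM in SA tumors 1 to 3, and 0.452, 0.167 and 0.182 CPM in WT penises 1 to 3. The WT values stood on 10, 5 and 4 counts, close to the floor of the depth, against 410, 628 and 1053 counts in the SA tumors. All SA tumors were far above all WT penises, and SA tumor 3 was the lowest of the tumors. The log2 fold change was 5.82 (SE 0.485, adjusted p = 3.17e-05), or 56.4-fold, and the ratio of the pooled CPM was 45.2 (95% exact interval 28.9 to 75.2, for counting error only). Pooled ratios, here and below, add the counts of a group, so that the deep library of SA tumor 3 weighs most.

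Alox8 (NM_009661, 14 exons, chromosome 11, 69183885 to 69197843), an epidermal lipoxygenase that is low in resting mouse skin, rose from levels near 1 CPM. It measured 34.1, 24.7 and 8.83 CPM in SA tumors 1 to 3 and 1.08, 1.07 and 0.683 CPM in WT penises 1 to 3. The groups were apart, and SA tumor 3 was again the lowest tumor, with about the same count as the others (1088 against 917 and 747) in a much deeper library. The log2 fold change was 4.55 (SE 0.562, adjusted p = 0.000488), or 23.4-fold. The pooled CPM ratio was lower, at 15.9 (95% exact interval 12.6 to 20.4, for counting error only). Of the 5 calls, that of Alox8 was the only one lost in any of the 17 alternatives, with limma-voom (log2 fold change 4.13, adjusted p = 0.012).

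Alox15 (NM_009660, 14 exons, chromosome 11, 70344147 to 70390538 in RefSeq, against an end at 70352031 for the GENCODE transcript) was expressed at a low level in both groups. It had 1.82, 0.893 and 2.78 CPM in SA tumors 1 to 3, and 0.0452, 0.0667 and 0.228 CPM in WT penises 1 to 3. The WT values rest on 1, 2 and 5 counts, which are at or near the floor. All SA tumors were above all WT penises, and here SA tumor 3 was the highest of the tumors, unlike for Alox12e and Alox8. The log2 fold change was 4.07 (SE 0.656, adjusted p = 0.00102), or 16.8-fold, and without WT penis replicate 3 it was 4.94. The pooled CPM ratio was 21.5 (95% exact interval 10.8 to 50.2, for counting error only).

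The lipoxygenase genes share sequence, but in short stretches. Over the coding sequence, Alox12e was 69.7% identical to Alox15 and 68.8% to Alox12, and Alox8 was 67.8% identical to Aloxe3. The longest stretch shared by any pair of lipoxygenase transcripts was 29 bases, between Alox12b and Aloxe3, against a read length of 76 bases. No pair shared a run of 30 bases. In the annotation, Alox5 and Alox12 each overlap a non-coding RNA gene and Alox15 overlaps a pseudogene, and the strand setting of the counting is not given in the sources used here.

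Markers of sebaceous and preputial gland were set beside these 3 genes. Of 10 such markers, 8 were tested and 6 rose, against 20.1% of all genes tested. Cidea and Far2 did not pass the test, with log2 fold changes of -0.26 and 0.34. Among those that rose was Scd1, a fatty acid desaturase, with a log2 fold change of 1.51. Elovl3 and Awat1, which make long-chain fatty acids and wax esters, averaged 1.75 and 1.38 CPM over SA tumors, while the WT penises held 1 and 2 counts in all. The 10 markers summed to 223, 289 and 204 CPM in SA tumors 1 to 3 and to 92.9 to 102 CPM in WT penises, and Scd1 alone gave 167, 225 and 141 CPM of the tumor sums. The order of the tumors by this sum, which is also that of Scd1 (highest in SA tumor 2, lowest in SA tumor 3), was that of Alox12e, and not that of Alox8 or Alox15. Eosinophil markers summed to 0.409, 0.563 and 1.25 CPM in SA tumors 1 to 3 and to 0.0667 to 0.181 CPM in WT penises, also without overlap, but 0 of 5 passed the filter on low counts. The part of these cells in the increases was not tested. In bulk tissue, fewer cells of a type and less RNA per cell cannot be told apart.

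**Figure D2:**
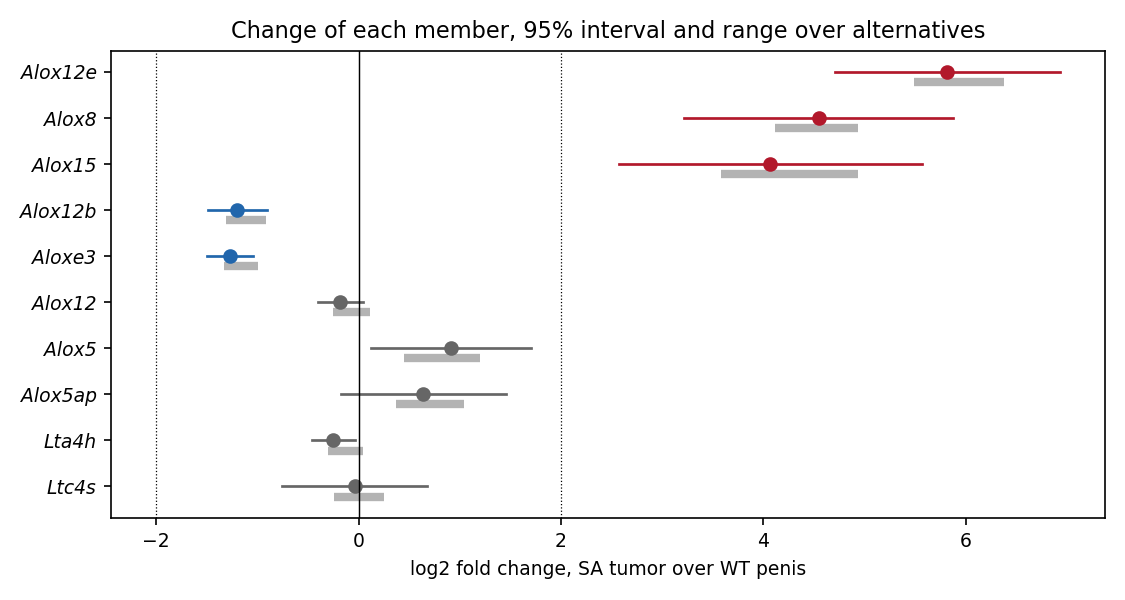
Log2 fold change of SA tumors over WT penises for the 10 genes, with points and lines for the estimate and its 95% interval (red higher, blue lower, grey not past the test) and grey bars for the range over 17 alternative analyses. The 3 increases stay above the dotted line at 2, and the bars of Alox12, Lta4h and Ltc4s cross 0.

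Alox12b and Aloxe3, the pair that acts in sequence in the skin barrier, fell together. Alox12b (NM_009659, 15 exons, chromosome 11, 69157072 to 69169791) was at 137, 159 and 119 CPM in SA tumors 1 to 3 and at 289, 324 and 338 CPM in WT penises 1 to 3. Its highest tumor was well below its lowest WT penis, and the log2 fold change was -1.20 (SE 0.127, adjusted p = 0.000107), so that WT penises were 2.29-fold higher. Aloxe3 (NM_011786, 15 exons, chromosome 11, 69125417 to 69149115) was at 43.7, 47.4 and 40.2 CPM in SA tumors 1 to 3 and at 100, 107 and 109 CPM in WT penises 1 to 3. Its log2 fold change was -1.27 (SE 0.0998, adjusted p = 2.18e-05), or 2.41-fold. Neither reached the fold threshold of the study, and both stayed negative and past the test in all 17 alternatives.

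Both genes were also compared as a ratio. In the deposited TPM, a measure of transcripts scaled to transcript length and library total, the ratio of Alox12b to Aloxe3 was 3.39, 3.62 and 3.20 in SA tumors 1 to 3 and 3.12, 3.27 and 3.35 in WT penises 1 to 3. The groups overlapped, with a difference of 0.07 on the log2 scale (exact permutation test, two-sided, p = 0.40, and 0.467 after adjustment over 7 ratios). The ratio of Alox12e to Alox12b went from between 0.000523 and 0.00159 in WT penises to between 0.0729 and 0.133 in SA tumors. For that ratio the exact permutation p was 0.10, the smallest that 3 against 3 samples can give (0.175 after adjustment). Alox12e rose and Alox12b fell, each without overlap, so this outcome was fixed by their separate calls and adds nothing to them.

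Of 15 genes that act around Alox12b and Aloxe3 in the barrier (acylceramide synthesis, transport and attachment), all were tested, 9 fell, 1 rose and 5 did not pass the test, with a median log2 fold change of -0.73 against 0.03 over all genes. Of all genes tested, 17.5% fell and 20.1% rose. The decreases were modest, from -0.64 for Ephx3, an epoxide hydrolase, to -1.15 for Nipal4, a membrane protein of ichthyosis. Cers3, the ceramide synthase for very long acyl chains, averaged 181 ± 14.8 CPM over WT penises and 92.2 ± 5.61 over SA tumors (SD, n = 3 per group) and had a log2 fold change of -0.97. Sdr9c7, a dehydrogenase that follows Aloxe3 in the pathway, averaged 119 ± 2.77 and 65.0 ± 2.89 CPM (SD, n = 3 per group). The fatty acid elongase Elovl4 averaged 207 ± 3.45 CPM over WT penises and 218 ± 26.5 over SA tumors (SD, n = 3 per group) without passing the test, nor did the crosslinking enzyme Tgm1, at 367 ± 34.1 and 300 ± 21.7. The only increase was in the lipase gene Lipn, which averaged 0.769 ± 0.163 CPM over WT penises and 3.89 ± 0.443 over SA tumors (SD, n = 3 per group), with a log2 fold change of 2.32 (SE 0.272, adjusted p = 0.000180).

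Markers of differentiated squamous epithelium were also lower in SA tumors. All 6 of the markers tested fell, against 17.5% of all genes tested, with a median log2 fold change of -1.94. Their summed level was 11800 to 18600 CPM in SA tumors and 48000 to 54300 in WT penises. Keratin 10, of the suprabasal layers, fell by 1.97 on the log2 scale, more than Alox12b. Of 5 basal markers, 2 fell and 3 did not pass the test, with a median of -0.49. Those that fell were Krt5, with a log2 fold change of -1.21, close to that of Alox12b, and Trp63, with -0.82. The basal sums did not overlap either, at 9180 to 11300 CPM in SA tumors and 15500 to 18800 CPM in WT penises. The part of tissue composition in the decrease was not tested.

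**Figure D3:**
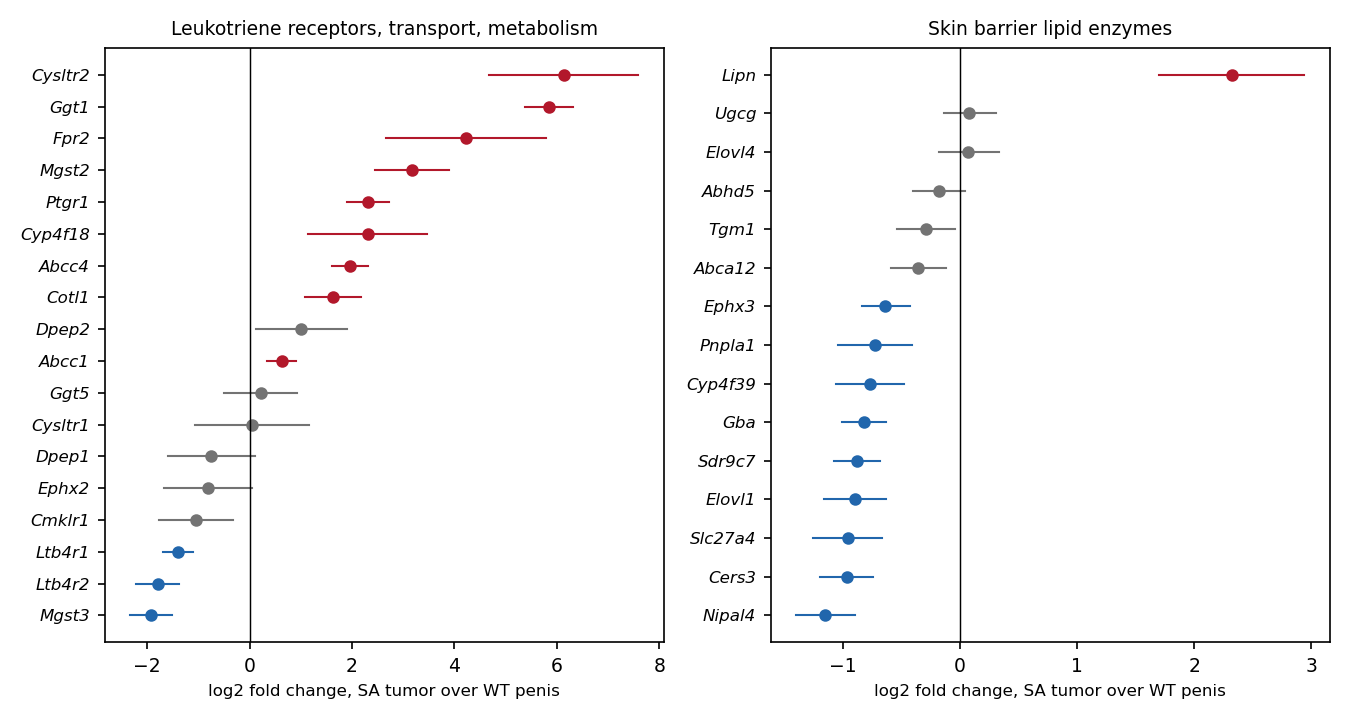
Log2 fold change and 95% interval of the tested genes of both pathway lists (red higher, blue lower, grey not past the test), ordered by change. On the left, 9 of 18 leukotriene pathway genes lie higher and 3 lower in SA tumors. On the right, 9 of 15 barrier genes lie lower and Lipn alone lies higher.

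The genes around the lipoxygenase clusters were counted as well. Within 100 kb of the Aloxe3, Alox12b and Alox8 cluster, 8 other genes were tested, of which 0 rose and 3 fell. Tmem107, a ciliary gene, was the only one of these past both thresholds, with a log2 fold change of -2.06. Around Alox12, Alox12e and Alox15, 12 other genes were tested, of which 0 rose and 1 fell. Of all genes tested, 20.1% rose and 17.5% fell. Alox12b and Alox8, separated by 14.1 kb, had log2 fold changes of -1.20 and 4.55, and Alox12 and Alox12e had -0.18 and 5.82.

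**Figure D4:**
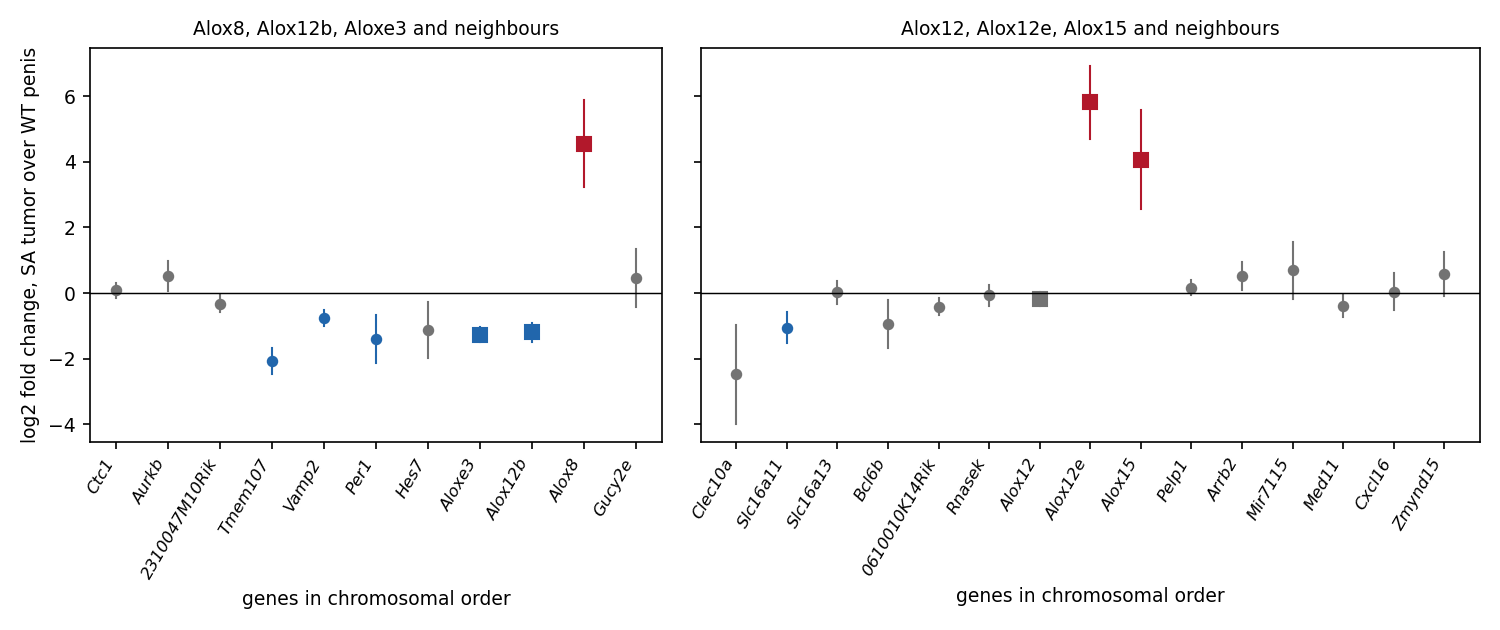
Log2 fold change and 95% interval of the tested genes in and within 100 kb of the lipoxygenase clusters of chromosome 11, in chromosomal order and not to scale (squares, the members; circles, the neighbours; red higher, blue lower, grey not past the test). Alox8, Alox12e and Alox15 are the only genes that lie higher past the test.

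Alox12 (NM_007440, chromosome 11, 70241457 to 70255380), the platelet-type enzyme that is also made by keratinocytes, did not pass the test. It was at 62.1, 66.4 and 65.5 CPM in SA tumors 1 to 3 and at 66.5, 76.3 and 76.6 CPM in WT penises 1 to 3. In CPM the SA tumors were below the WT penises without overlap, but by a narrow margin. In the deposited TPM the groups were narrowly apart in the other direction, averaging 38.4 in SA tumors and 33.7 in WT penises. The log2 fold change was -0.18 (95% interval -0.40 to 0.04, adjusted p = 0.154), and scaling by library totals alone turned it to 0.11. Of 5 platelet markers tested, only Ppbp, a platelet chemokine gene, rose (log2 fold change 4.39). The summed platelet markers were 35.7 to 74.2 CPM in SA tumors and 29.8 to 42.7 in WT penises. Ppbp alone gave 16.6 to 30.5 CPM in SA tumors and 0.592 to 1.63 CPM in WT penises. Pf4, Itga2b, Gp1ba and Itgb3 overlapped between the groups, with log2 fold changes of -0.67, -0.46, -0.25 and 0.42.

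None of the genes of the leukotriene branch passed the test. Alox5 (NM_009662, chromosome 6, 116410071 to 116461178) was at 4.98, 8.37 and 14.0 CPM in SA tumors 1 to 3 and at 5.20, 4.4 and 5.15 CPM in WT penises 1 to 3. SA tumor 1 lay within the WT range, while SA tumors 2 and 3 were above it. In the deposited TPM the groups did not overlap, with 3.15 to 9.05 in SA tumors and 2.18 to 2.63 in WT penises. The log2 fold change was 0.91 (95% interval 0.12 to 1.70, adjusted p = 0.0525), and without SA tumor replicate 1 it was 1.20 with an adjusted p of 0.00381. Alox5ap (NM_009663, chromosome 5, 149265004 to 149288153), the partner protein of Alox5, followed the same order in the tumors, with 8.17, 13.5 and 17.5 CPM in SA tumors 1 to 3, against 12.6, 6.31 and 6.42 CPM in WT penises 1 to 3. Its log2 fold change was 0.64 (95% interval -0.17 to 1.46, adjusted p = 0.160), and the groups overlapped.

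The summed RNA of 6 general leukocyte markers had the same order as Alox5 and Alox5ap in the SA tumors. It was 78.6, 147 and 228 CPM in SA tumors 1 to 3 and 83.2, 53.9 and 53.2 CPM in WT penises 1 to 3. The sum and both genes were highest in WT penis 1. Both genes had WT penises 2 and 3 in the other order, by little for Alox5ap (6.31 and 6.42 CPM). SA tumor 1 lay within the WT range for this sum. Of the 6 markers, 1 rose, against 20.1% of all genes tested, and their median log2 fold change was 1.35. Ptprc, the leukocyte antigen CD45, had a log2 fold change of 1.60 (SE 0.435, adjusted p = 0.0187). Alox5 was also set against Ptprc. The ratio of their TPM was 0.805, 0.846 and 0.672 in SA tumors 1 to 3 and 1.04, 1.18 and 1.44 in WT penises 1 to 3, without overlap. The log2 difference was -0.65 (exact permutation test, two-sided, p = 0.10, the smallest the design allows, and 0.175 after adjustment). For Alox5ap the same ratio was 2.77 to 4.53 in SA tumors and 5.60 to 8.34 in WT penises, with the same p. The ratio of Alox5ap to Alox5 overlapped between the groups (p = 0.80 in the same exact test).

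Among the leukocyte types, neutrophil markers had the largest difference, with 7 of 8 tested higher in SA tumors, a median log2 fold change of 4.72, and sums of 1450 to 2540 CPM in SA tumors against 68.9 to 137 in WT penises. Most of that sum is S100a8 and S100a9, which keratinocytes can also express. Of the granule genes, Mmp8 rose, from 0.0452 to 1.2 CPM on average (adjusted p = 0.002), while others were too low to test. Elane held 2 counts in all SA tumors together and 0 in WT penises, and Mpo averaged 0.13 and 0.0151 CPM. Of 10 macrophage and monocyte markers, 1 rose, 1 fell and 8 did not pass the test. Of all genes tested, 20.1% rose and 17.5% fell. The part of each cell type in the levels of Alox5 and Alox5ap was not tested.

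**Figure D5:**
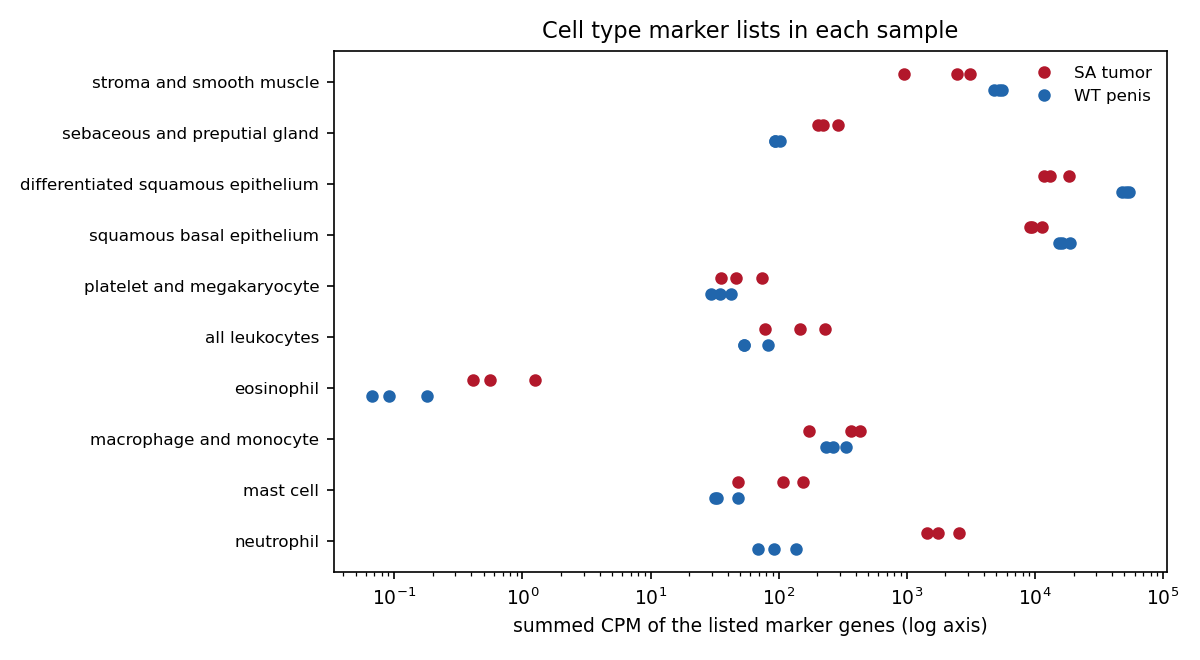
Summed CPM (log axis) of the marker genes of 10 cell types in each of the 3 SA tumors (red) and 3 WT penises (blue). Neutrophil and sebaceous sums are higher in every SA tumor. Sums of basal squamous epithelium, of squamous differentiation and of stroma and smooth muscle are lower, and macrophage sums overlap.

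Lta4h (NM_008517, chromosome 10, 93453396 to 93484896), the hydrolase that makes leukotriene B4, was similar in level among replicates. It was at 72.6, 72.5 and 66.9 CPM in SA tumors 1 to 3 and at 89.2, 82.3 and 80.6 CPM in WT penises 1 to 3. The groups did not overlap, and the log2 fold change was -0.25 (95% interval -0.46 to -0.04, adjusted p = 0.0476), above the threshold of 0.01. Scaling by library totals alone gave 0.04. In the deposited TPM the groups were apart in the other direction, at 59.1 to 62.9 in SA tumors and 55.3 to 56.3 in WT penises.

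Ltc4s (NM_008521, chromosome 11, 50236461 to 50238532), the synthase of leukotriene C4, was low in both groups. It was at 1.08, 2.22 and 1.86 CPM in SA tumors 1 to 3 and at 1.76, 1.67 and 1.91 CPM in WT penises 1 to 3. The WT values lay inside the range of the tumors, and the log2 fold change was -0.04 (95% interval -0.76 to 0.68, adjusted p = 0.925), with a sign that turned under 2 other scalings and without SA tumor replicate 1. Mast cells are a known source of this enzyme. Of 9 mast cell markers, 3 rose (Kit, Tpsab1 and Hdc), against 20.1% of all genes tested, and 6 did not pass the test. The sums were 47.8, 108 and 154 CPM in SA tumors 1 to 3 and 31.7 to 48.4 CPM in WT penises. Hdc alone gave 14.1, 21.9 and 51.8 CPM in SA tumors 1 to 3 and 0.956 to 1.49 CPM in WT penises. Of those that did not pass, Cpa3, Mcpt4, Tpsb2 and Cma1 overlapped between the groups, while Fcer1a and Ms4a2 did not. The ratio of the TPM of Ltc4s to that of Cpa3, a mast cell protease gene, was 0.634, 0.461 and 0.285 in SA tumors 1 to 3 and 0.554 to 0.998 in WT penises, with overlap (exact permutation test, p = 0.20).

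By TPM, which is per length, Alox12b had the highest level of the 10 genes in both groups, 104 TPM on average in SA tumors and 186 in WT penises. In WT penises Aloxe3 and Lta4h followed at 57.2 and 55.7 TPM, with ranges that overlapped, then Alox12 at 33.7, Alox5ap at 13.4, Ltc4s at 4.16 and Alox5 at 2.39, each apart from the next. Alox8, Alox12e and Alox15 closed the order at 0.394, 0.155 and 0.0662 TPM, and the ranges of Alox12e and Alox15 overlapped. In SA tumors Lta4h was in second place at 60.7 TPM, followed by Alox12 at 38.4 and Aloxe3 at 30.6. Alox8 and Alox12e had moved up to 12.2 and 11.3 TPM, above Alox5 and Ltc4s at 5.76 and 5.17, but the ranges from Aloxe3 down to Ltc4s each overlapped with the next. Alox15 remained last at 1.36 TPM.

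Downstream of the leukotriene enzymes, 22 genes of receptors, transport and metabolism were examined. Of these, 18 were tested, 9 rose, 3 fell and 6 did not pass the test, with a median log2 fold change of 0.82. Over all genes tested, 20.1% rose and 17.5% fell, with a median of 0.03. Both receptors of leukotriene B4 fell. Ltb4r1, the high-affinity receptor, went from 61.4, 49.7 and 56.0 CPM in WT penises 1 to 3 to 19.6, 19.9 and 24.0 CPM in SA tumors 1 to 3, a log2 fold change of -1.39. Ltb4r2, the low-affinity receptor that keratinocytes express, had 35.8, 37.2 and 41.8 CPM in WT penises 1 to 3 and 12.1, 8.04 and 12.9 CPM in SA tumors 1 to 3, a log2 fold change of -1.79. For neither gene did the groups overlap.

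The receptors of the cysteinyl leukotrienes were low. Cysltr2 was at 1.15, 1.22 and 1.07 CPM in SA tumors 1 to 3, while the WT penises held a single count in all. Its pooled CPM ratio was 82.1, with a 95% exact interval from 14.6 to 3260 that covers counting error only. Cysltr1 averaged 1.34 ± 0.956 CPM over SA tumors and 1.36 ± 0.271 over WT penises (SD, n = 3 per group), did not pass the test, and had a fitted difference of 0.05 whose sign turned in 5 alternatives. Fpr2, a formyl peptide receptor that also binds lipoxin and is made by neutrophils, rose to 1.04, 1.65 and 3.40 CPM in SA tumors 1 to 3, with a pooled CPM ratio of 25.5 (95% exact interval 12.8 to 59.4, counting error only), and its WT values rest on 8 counts in all.

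Among the enzymes and transporters, Ggt1, a γ-glutamyl transferase that can trim leukotriene C4, was at 24.0, 24.7 and 30.8 CPM in SA tumors 1 to 3 and at 0.407, 0.434 and 0.546 CPM in WT penises 1 to 3. Its log2 fold change was 5.84 (SE 0.207, adjusted p = 1.04e-06). Its relative Ggt5 averaged 4.44 ± 1.91 CPM over SA tumors and 3.87 ± 0.0889 over WT penises (SD, n = 3 per group) and did not pass the test. Mgst2 and Mgst3, microsomal glutathione transferases of the family of Ltc4s and Alox5ap, went in opposite directions. Mgst2 averaged 1.5 ± 0.629 CPM over WT penises and 13.5 ± 2.76 over SA tumors, and Mgst3 averaged 79.6 ± 11.9 and 21.1 ± 4.68 CPM (SD, n = 3 per group). Ptgr1, a reductase that inactivates leukotriene B4, averaged 11.1 ± 2.48 CPM over WT penises and 54.8 ± 7.44 over SA tumors, and Cyp4f18, a hydroxylase of leukotriene B4 in neutrophils, averaged 1.22 ± 0.635 and 5.96 ± 3.55 CPM (SD, n = 3 per group). Both log2 fold changes were 2.31. Cyp4f18 missed the threshold without WT penis replicate 2 (adjusted p = 0.0313) and without WT penis replicate 3 (adjusted p = 0.0213). The exporters Abcc4 and Abcc1 rose by log2 fold changes of 1.96 and 0.63, the latter missing the threshold without WT penis replicate 1 or 2 (adjusted p = 0.013 and 0.0132), and Cotl1, a protein that binds Alox5, rose by 1.63.

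The genes with the profile most like that of each member were sought among 13822 genes averaging 100 counts or more, by the Euclidean distance of centered log2 CPM over the 6 samples. For Alox12b they were Rptn, which encodes the cornified envelope protein repetin, and Trim47, at distances of 0.121 and 0.125. For Alox12e they were Mmp7, a matrix metalloproteinase gene, and Pglyrp1, a peptidoglycan recognition protein of neutrophil granules, at 0.663 and 0.768, and for Alox8 they were Gpr37 and Gpx2, at 0.876 and 0.983. Alox5 was nearest to Prkcb, a protein kinase C gene of leukocytes, and Col5a2, at 0.220 and 0.231, and Alox5ap to Nxpe5 and Tnfaip8l2, at 0.243 and 0.337. These distances are descriptions over 6 samples in 2 groups.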

How the data were processed

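The paper describes stranded paired-end libraries, alignment to mm10 with TopHat and gene counts from HTSeq, versions not given in the sources used here. The deposited files give raw counts per RefSeq transcript, with FPKM and TPM values. How these counts per transcript were made from the reads is not described in the paper. FPKM values were used in no test, and TPM values (deposited) only to compare levels between genes and for 7 ratios.

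The transcript row with the highest mean count represented its symbol. Genes were filtered with filterByExpr, scaled by TMM and tested in R 4.3.3 with edgeR 4.0.16 (quasi-likelihood F-test, robust, Benjamini-Hochberg adjustment over 16336 genes). A gene was called at an adjusted p-value under 0.01, and the study's fold threshold was given beside it. SE is the size of the log2 fold change divided by the square root of F, and CPM are TMM-normalized. TPM ratios were compared by exact permutation tests. With 3 samples in each group and nothing said of shared cultures or litters, p-values measure the spread between these samples.

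The members and lists were chosen with earlier results of these data known. Named are the 10 members, Smad4, Apc, pathway genes past both thresholds, and, chosen after their values were seen, further genes of the pathway and marker lists. Adgre1 and Siglecf were matched under older symbols, and Gpr31c, Ly6g and Flg were not used here. Gene positions and promoters are from RefSeq (GRCm38.p6, the assembly of mm10) and transcripts from GENCODE M21. Lists were described and not tested. In a simulation of SA tumors against WT penises (16215 genes tested), edgeR recovered 193 of 200 genes that were shifted by 3 on the log2 scale and called 5 unchanged ones. It used no smaller shift and far fewer changed genes than were called here. It therefore does not measure recovery of changes the size of those of Alox12b and Aloxe3, or errors of scaling. Alternatives were 3 other scalings, 2 other filters, DESeq2 1.42.0, limma-voom (limma 3.58.1), edgeR's glmTreat against a 1.5-fold change, the replicate number as a block, the sum of transcript rows, each sample left out, and, chosen after the depths were seen, the deepest library thinned.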

Additional observations from a re-analysis of the deposited data

How the results depend on the processing

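The calls of Alox12e, Alox15, Alox12b and Aloxe3 kept their direction and stayed past the test in all 17 alternatives, and Alox8 did so in 16. Over these, log2 fold changes ranged from 5.49 to 6.38 for Alox12e, 4.12 to 4.94 for Alox8, 3.58 to 4.94 for Alox15, -1.31 to -0.92 for Alox12b and -1.33 to -0.99 for Aloxe3. Alox8 missed the threshold with limma-voom (adjusted p = 0.012), and Alox5 passed it without SA tumor replicate 1 (adjusted p = 0.00381). Over all genes, scaling by library totals alone gave 5244 higher and 1807 lower, and glmTreat 2114 and 1370, with 4 barrier genes lower in place of 9. The cause was not tested for the scaling, and glmTreat tests against a larger change by construction. With library totals alone the log2 fold change became 0.11 for Alox12, 0.04 for Lta4h, 0.25 for Ltc4s and 0.11 for Abhd5, and Ltc4s was 0.02 with upper-quartile scaling and between -0.24 and 0.18 with 1 replicate left out (0.18 without SA tumor replicate 1). Cysltr1 was -0.18 with the replicate block, -0.02 with summed transcript rows, and between -0.77 and 0.36 with 1 replicate left out (-0.77 without SA tumor replicate 3, -0.06 and -0.05 without WT penis replicates 1 and 3). With 1 replicate left out, Ggt5 ranged from -0.17 (without SA tumor replicate 3) to 0.47 and Ugcg from -0.00 (without WT penis replicate 1) to 0.12. Left-out replicates gave 2361 to 3260 genes higher, 2055 to 2894 lower, and 3 to 4 members higher. Residuals of samples with the same replicate number had correlations of -0.135, -0.105 and 0.0238, so the numbers were not read as pairs. The replicate block gave 2809 genes higher, 2446 lower, 3 members higher and 2 lower. Depth limits Alox15, Alox12e and Cysltr2, whose WT values rest on 8, 19 and 1 counts in all.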
